A study of Homo sapiens with 117 samples.

Results

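The 2 Mb of chromosome 1 around the AsiSI site in the first exon of KYAT3 and RBMXL1, which the study calls DSB1 and which lies next to the guanylate-binding protein (GBP) genes, held 5954 CTCF peaks in 24 ChIP-seq peak lists. Every peak whose summit lay within 1 Mb of that AsiSI site was taken, whatever its strength or condition, and summits within 100 bp of each other were joined into sites. This gave 3413 sites of the 2790289 joined in the same way over the genome. The AsiSI site is at chr1:88992913-88992920 in GRCh38, and no other AsiSI sequence lies in the window. A site is named below by the distance of its median summit from the AsiSI site in kb, with minus toward lower coordinates. Genes and exons are those of GENCODE 44.

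DIvA cells are an osteosarcoma cell line in which the nuclease AsiSI is joined to a domain of the estrogen receptor, and 4-OHT (300 nM for 4 h) brings it into the nucleus, where it cuts its sites. All cells here carried this nuclease, and cells without 4-OHT are written −DSB and cells with it +DSB. They carried IDH1WT or IDH1R132H, delivered by lentivirus, and some IDH1R132H cells also received the catalytic domain of TET1 (TET1 CD) or a catalytically dead form of it (TET1 dCD). Without constructs there were 3 −DSB and 4 +DSB lists of IDH1WT cells and 4 and 4 of IDH1R132H cells. With TET1 CD there were 2 and 2 lists, and with TET1 dCD 3 and 2. The study asked whether CTCF binding near the breaks differs with IDH1R132H, an enzyme variant that makes D-2-hydroxyglutarate, and whether TET1 activity alters it.

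CTCF is a zinc finger protein that binds a long asymmetric DNA motif and, together with cohesin, sets the anchors of chromatin loops. Cohesin tends to stop where it meets CTCF from one side, so the strand of the motif matters to which sites can pair, and methylation of a CpG inside the motif is known to weaken binding at some sites. CTCF also sits at CpG-rich promoters and has been linked to repair of double-strand breaks by homologous recombination.

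The sequences below, from GRCh38, show the cut site and some of the CTCF sites with a motif match, in order along the chromosome. Not every site shown differed in a comparison below. The sites at −931.2, +28.9, +527.1 and +640.1 kb did, but they had no match and are not shown. Capitals mark the AsiSI recognition sequence in the line of the cut site and, in the other lines, the best match to a 20-base CTCF matrix, written 5′ to 3′ on the strand of the motif. Sites inside exons are shown with 5 bases on each side of the match and the others with 20.
AsiSI site, chr1:88992905-88992928, plus strand: ggtccgccGCGATCGCggaatgga
−812.2 kb, chr1:88180675-88180734, plus strand: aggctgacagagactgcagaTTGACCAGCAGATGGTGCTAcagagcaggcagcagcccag
−8.9 kb, chr1:88984024-88984053, plus strand: tttctTTTGCCACTAGATGGCAGAGgaaaa
+6.0 kb, chr1:88998852-88998911, plus strand: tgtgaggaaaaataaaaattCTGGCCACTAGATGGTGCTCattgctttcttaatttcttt
+93.1 kb, chr1:89085953-89086012, plus strand: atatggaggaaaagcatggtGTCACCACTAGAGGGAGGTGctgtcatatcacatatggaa
+365.6 kb, chr1:89358452-89358511, minus strand: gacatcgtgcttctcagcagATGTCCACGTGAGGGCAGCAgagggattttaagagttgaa
+490.5 kb, chr1:89483411-89483470, plus strand: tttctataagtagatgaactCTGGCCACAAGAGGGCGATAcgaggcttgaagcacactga
+770.2 kb, chr1:89763126-89763155, minus strand: gcaccTTGGCCACTAGGAGGCAGGCccgcc
+811.9 kb, chr1:89804807-89804866, plus strand: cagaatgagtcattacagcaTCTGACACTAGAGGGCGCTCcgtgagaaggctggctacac
+850.5 kb, chr1:89843409-89843438, plus strand: gcgagGCCACCAGCAGGGGGGGCCCgggcc
+994.5 kb, chr1:89987367-89987426, minus strand: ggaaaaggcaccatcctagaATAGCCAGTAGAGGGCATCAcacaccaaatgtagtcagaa

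The lists differed in more than their labels. They held 111558 to 503609 peaks, of which 84 to 485 were in the window, and the reads behind them, estimated from the steps between fold values, were 22.7 to 76.4 megareads. Their shortest peak, which follows the fragment length used by the peak caller, ran from 118 to 194 bp. The run names written inside 9 lists name another group than the sample label: the 3 IDH1WT −DSB lists carry names of IDH1R132H −DSB, the 4 IDH1R132H −DSB lists carry names of IDH1WT −DSB, and 2 of the 3 TET1 dCD −DSB lists carry names of TET1 CD +DSB. Labels set the groups in the text, and each result that uses these lists is also given with the groups set by the run names. Lists of a group whose reads at shared summits differed by less than the sampling noise were counted as 1 sample, by their mean, which left 15 samples. Some lists kept apart exceeded that noise only slightly. The ratio of the spread to the noise was 1.04 for the 2 TET1 dCD +DSB lists and 1.06 for IDH1R132H +DSB replicates 1 and 2. Among other lists kept apart it reached 5.38, in TET1 dCD −DSB. The 15 samples were 2 −DSB and 2 +DSB for IDH1WT, 2 and 3 for IDH1R132H, 1 and 1 with TET1 CD, and 2 and 2 with TET1 dCD. The study calls the replicates of this assay biological and gives their number as 2 in some places and as 2 to 4 in another. It does not say which lists came from separate cultures, so p-values measure the spread between these samples, part of which may be technical.

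A small set of strong sites recurred in all lists, and most others were seen once. Of the 3413 sites, 2490 (73.0%) had a peak in 1 list, 715 in 2 or 3 lists, 162 in 4 to 11, 20 in 12 to 23 and 26 in all 24. The 26 sites took 628 of the window's peaks (10.5%), and their summits spread over a median of 53.5 bp between lists. They amount to 13 sites per Mb, against 10.0 per Mb for the 30461 such sites of the genome, and 22.97% of the 1506 bins of 2 Mb in the genome held at least as many. A site's strength is given here as its rank by fold over background in its own list, where rank 1 is the strongest peak, because fold values are not normalized between lists. By the median rank over the lists, 8 of the 26 sites were among the 10000 strongest peaks and 23 among the 20000 strongest, 12 of these to the left of the cut and 11 to the right.

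**Figure D1:**
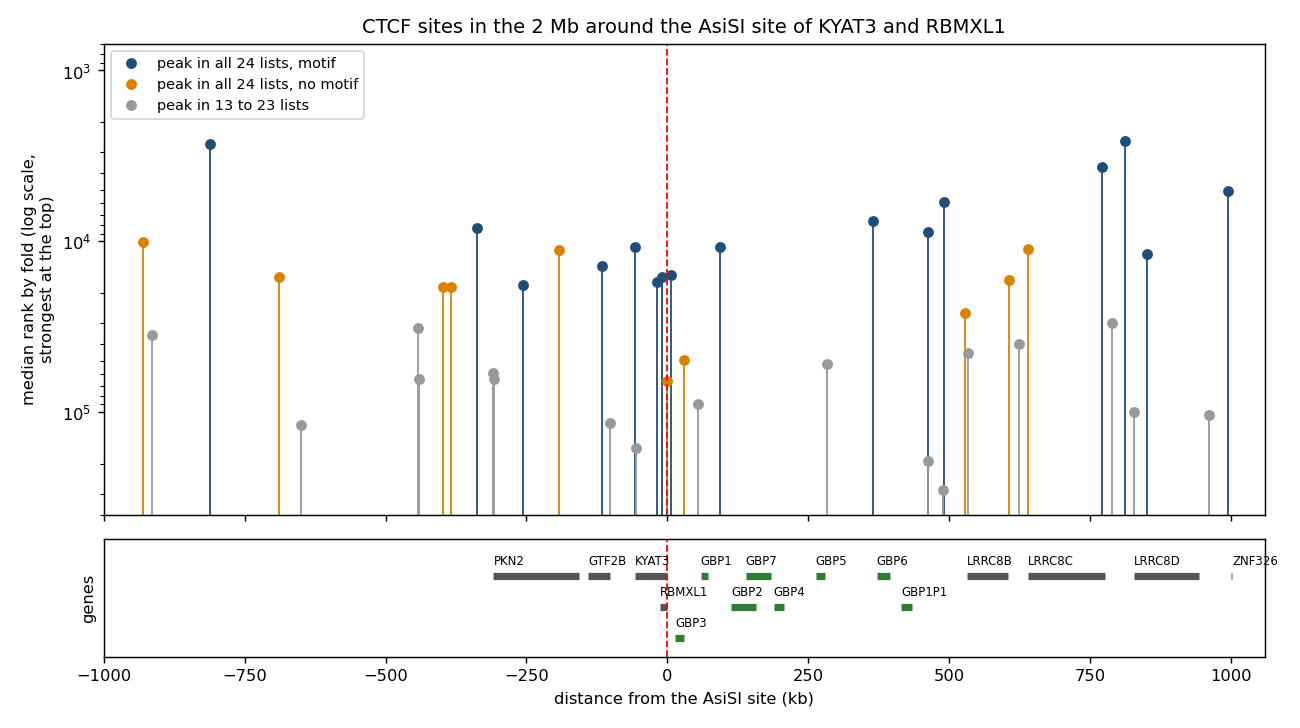
Median rank by fold of CTCF sites (y axis, log scale, strongest at the top) against the distance from the AsiSI site in kb, with the genes below. Blue and orange points are the 26 sites with a peak in all 24 lists, with and without a motif match, and gray points are sites of 13 to 23 lists; the strong sites lie on both sides of the cut, and none with a peak in all lists falls in the 272.5 kb from +93.1 to +365.6 kb.

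The motif matrix found a match within 50 bp of the summit in 16 of the 26 sites (61.5%), close to the 64.5% of all 30461 sites of the genome and far above the 1.00% of windows of the same length placed 500 to 600 bp away. A stricter core, the letters cca, ag and ggc with any 2 bases between each, on either strand, was in 6 of the 26 (23.1%), in 27.8% of the genome's sites and in 0.397% of the displaced windows. The share with a matrix match was 35% of the 20 sites found in 12 to 23 lists and 4.94% of the 162 sites found in 4 to 11 lists. Sites with a match had a median rank of 9813.5 and those without one of 17707. On the left of the cut 6 matches were on the plus strand and 1 on the minus strand, and on the right 5 were on the plus strand and 4 on the minus strand. A CpG lay inside the match of 4 sites (−256.1, +365.6, +490.5 and +811.9 kb). The last 3 of these are among the sequences printed above.

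The cut itself lay between moderate sites. KYAT3 encodes a kynurenine aminotransferase, and RBMXL1, a gene for an RNA-binding protein related to RBMX, starts beside it and overlaps it. Within 10 kb of the cut were 15 sites found in at least 4 lists, and 3 of them were in all lists. The site at −8.9 kb (chr1:88984033), in an intron of KYAT3 and an untranslated exon of RBMXL1, had a median rank of 16241 and stayed between 13202.5 and 20165.5 in all 24 lists. The site at +6.0 kb (chr1:88998869), in the gap before GBP3, had a median rank of 15716.5 with a range of 12692 to 21148. Both carry a plus-strand motif, and at each the highest rank was less than 2 times the lowest. The site at −0.5 kb (chr1:88992407), inside the CpG-rich start of KYAT3 and RBMXL1, was much weaker, with a median rank of 65871 and a range of 35567.5 to 415931, and its summits wandered over 685 bp, the widest of the 26. It had no motif match. Further strong sites of KYAT3 were at −19.2 kb, in an intron (median rank 17235), and at −56.8 kb, in the untranslated exon at the gene's far end (median rank 10814, the strongest site of KYAT3), both with a plus-strand motif.

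The GBP cluster, whose genes encode interferon-induced GTPases that act against microbes inside cells, held few sites of all lists. Over the 381 kb from GBP3 to GBP6 there were 27 sites found in at least 4 lists and 3 found in all lists. At 10.0 sites of all lists per Mb in the genome and 13 per Mb in the window, a stretch of this length would hold only a few. Whether 3 is fewer than in other such stretches was not tested. The first, at +28.9 kb (chr1:89021822), lies in an intron of GBP3, 929 bp from its nearest annotated start; it had a median rank of 49186 and no motif match. The second, at +93.1 kb (chr1:89085973), lies between GBP1 and GBP2 and ranked 10848 at the median. The third, at +365.6 kb (chr1:89358490), lies 5.6 kb before GBP6, ranked 7603 at the median, and was the strongest of the cluster. Thus the gap of 272.5 kb between +93.1 and +365.6 kb, the second longest of the window after 292.3 kb between −689.6 and −397.3 kb, spans GBP2, GBP7, GBP4 and GBP5 without a site of all lists. How often gaps of this length occur in the genome was not counted.
Inside or within 5 kb upstream of the other GBP genes the strongest sites were weak and inconstant. GBP5 had one at +284.0 kb, in 23 lists, with a median rank of 52473.5. GBP1 had one at +72.8 kb in 9 lists, whose best rank in any list was 51041. GBP2 and GBP7, which overlap, shared one at +156.5 kb in 8 lists with a best rank of 57893.5, and GBP4 had one at +189.7 kb in 4 lists with a best rank of 62345. GBP6 itself, apart from the site before it, had one at +380.6 kb in 5 lists (best rank 54116), and the pseudogene GBP1P1 one at +425.6 kb in 5 lists (best rank 57353.5).
The study's bisulfite PCR looked at 3 stretches near DSB1. The CTCF site at +365.6 kb lies inside the amplicon at chr1:89358307-89358639. The site at +93.1 kb lies 337 bp outside the amplicon at chr1:89086310-89086671. The amplicon at chr1:89524310-89524627, before LRRC8B, holds a weak CpG-rich site at +531.5 kb, with a peak in 12 lists and a best rank of 59795.5. By the labels these were 2 of 3 IDH1WT −DSB, 0 of 4 IDH1WT +DSB, 3 of 4 IDH1R132H −DSB and 4 of 4 IDH1R132H +DSB lists. With TET1 CD there were 0 of 2 without and 0 of 2 with 4-OHT, and with TET1 dCD 1 of 3 and 2 of 2. None of the 6 lists with a shortest peak of 172 bp or more had it, nor did IDH1WT +DSB replicate 2 at 143 bp. Whether the split follows genotype or fragment length was not tested. The amplicon ends were placed by matching pieces of the printed sequences to GRCh38 and may be off by a few bases.

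To the left of the cut the strongest sites lay in the long non-coding PKN2-AS1. The site at −812.2 kb (chr1:88180690) had a median rank of 2695 and a range of 1941.5 to 3802 over the lists. Others in introns of PKN2-AS1 were at −931.2 kb (median rank 10048), −689.6 kb (16161), −397.3 kb (18491), −384.6 kb (18550) and −337.0 kb (8344); of these only −337.0 kb had a motif match, on the plus strand. PKN2, a gene for a serine/threonine protein kinase, had sites in its introns at −256.1 kb (median rank 17891, plus-strand motif) and −192.3 kb (median rank 11166, no motif), the latter the strongest of the gene. GTF2B encodes the general transcription factor that places RNA polymerase II at promoters, and its strongest site was in an intron at −115.4 kb (median rank 13847, minus-strand motif).

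To the right, beyond the GBP genes, lay several of the strongest sites of the window, around genes whose products form the volume-regulated anion channel. In an unnamed long non-coding gene were +462.4 kb (median rank 8813, minus-strand motif) and +490.5 kb (chr1:89483439, median rank 5865, plus-strand motif). LRRC8B, a subunit of the channel, had as its strongest site +527.1 kb (chr1:89519984), 4.8 kb before its start, with a median rank of 26365 and no motif. From the start of LRRC8B to the end of LRRC8D there were 48 sites found in at least 4 lists, of which 5 were in all lists. These were +606.3 kb in an intron of LRRC8C-DT (median rank 16923, no motif), +640.1 kb (chr1:89633008, beside the start of LRRC8C and 5 bp from that of LRRC8C-DT; median rank 11108.5), +770.2 kb (chr1:89763143, in an exon of LRRC8C; median rank 3687), +811.9 kb (chr1:89804831, in an intron between LRRC8C and LRRC8D; median rank 2587) and +850.5 kb (chr1:89843425, in an untranslated exon of LRRC8D 2 bp from an inner start; median rank 11858). The site at +811.9 kb was the strongest of the 26 by median rank. At +640.1 kb, with 44 CpGs in 300 bp, no motif match was found, and at +850.5 kb, with 27 CpGs in 300 bp, a plus-strand match was found. Next to ZNF326, a zinc finger protein that links transcript elongation to splicing, was +994.5 kb (chr1:89987411, 7.7 kb before the gene; median rank 5044, minus-strand motif), while the strongest site within 5 kb of ZNF326 itself, at +997.5 kb, was in 4 lists with a best rank of 90207.

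**Figure D2:**
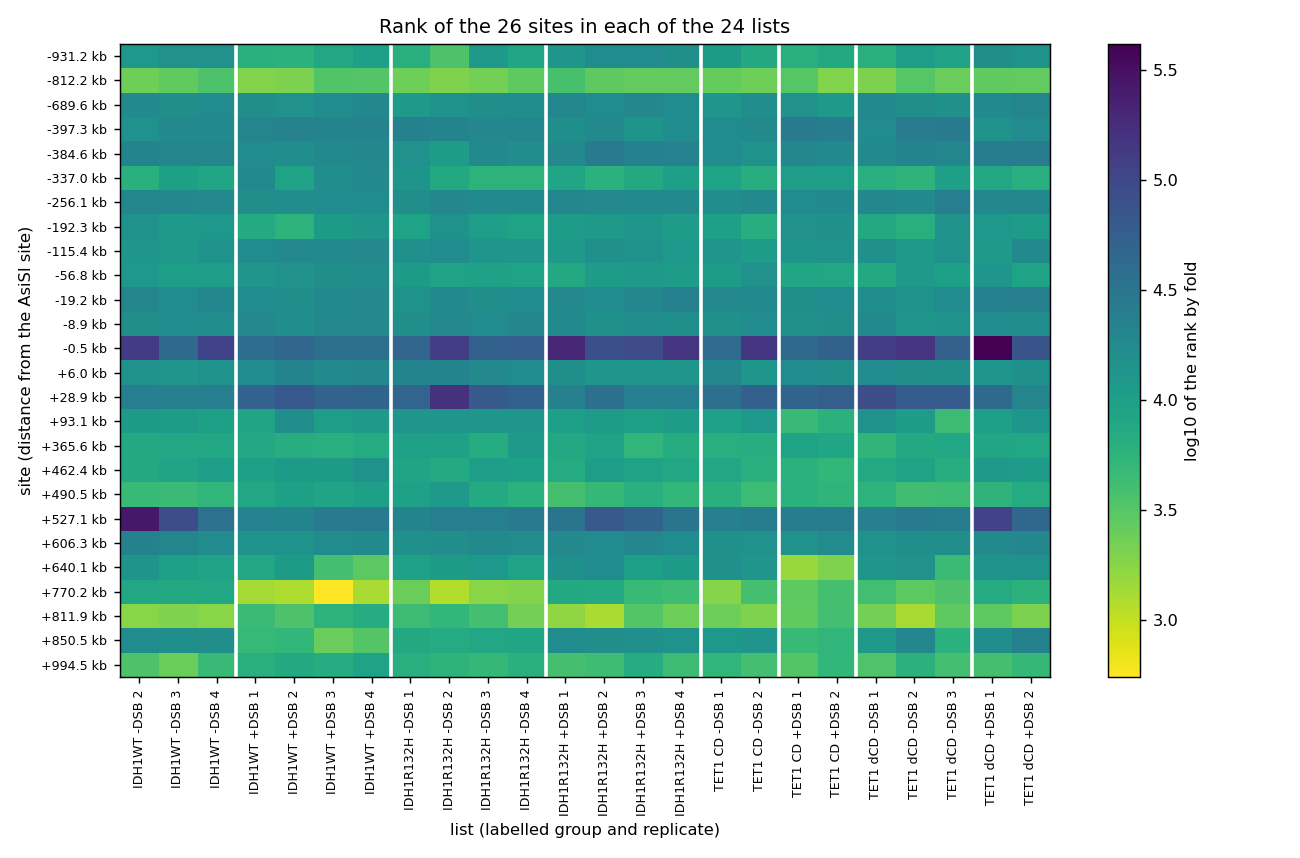
Rank by fold (color, log10) of the 26 sites in every list; rows are sites in order along the chromosome and columns are lists in order of their labelled group. Yellow and light green mark ranks nearest the top: −812.2 and +811.9 kb are light in most columns, +770.2 kb is lightest in IDH1WT +DSB, and −0.5, +28.9 and +527.1 kb hold the darkest cells.

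The first comparison asked whether the sites held other ranks in IDH1R132H than in IDH1WT cells after the breaks were made, and it is the comparison of genotypes in which all labels and run names match. Of the 26 sites, 8 differed (limma on log2 ranks over the 30461 sites, Benjamini-Hochberg adjusted p under 0.05), where 28.2% of all sites tested did. In IDH1R132H +DSB cells 5 sites were nearer the top of the lists (+6.0, +28.9, +490.5, +811.9 and +994.5 kb), against 14.6% of all sites, and 3 were farther from it (−931.2, +770.2 and +850.5 kb), against 13.6%. Differences are given as −log2 rank in IDH1R132H minus that in IDH1WT, so a value above 0 is a rank nearer the top in IDH1R132H.
At +770.2 kb in LRRC8C the ranks of the IDH1WT +DSB lists were 1358.5, 1255.5, 550 and 1282, and those of the IDH1R132H +DSB lists were 7362.5, 7162.5, 4769.5 and 4341. The groups did not overlap, and the site was 5.59 times farther down in IDH1R132H (−2.48 ± 0.26 SE, adjusted p = 0.000557), but the direction turned to 0.20 when the fold centred on its median was used in place of the rank. At +850.5 kb in LRRC8D the IDH1WT +DSB lists ranked it 4949.5, 5113, 2501 and 3214, and the IDH1R132H +DSB lists 16554, 15658.5, 14998 and 14261.5. Here too the groups were apart, with a difference of −1.90 ± 0.34 (adjusted p = 0.00421), which was −0.58 and missed the threshold with the centred fold (adjusted p = 0.0512 by limma).
At +811.9 kb the order was the opposite. The IDH1WT +DSB lists ranked it 4522.5, 3533.5, 5739.5 and 6793, and the IDH1R132H +DSB lists 1641.5, 1292, 3248 and 2355.5, without overlap and with a difference of 1.30 ± 0.35 (adjusted p = 0.0238). Its neighbours in the same direction were +490.5 kb, with ranks of 7790.5, 9506, 8767 and 9832.5 in IDH1WT and 3926, 4976.5, 6194 and 5104 in IDH1R132H (0.93 ± 0.19, adjusted p = 0.00847), and +994.5 kb (0.69 ± 0.19, adjusted p = 0.0257). The ranks of +490.5 kb did not overlap between the genotypes, and at +994.5 kb the range of 6347 to 8826.5 in IDH1WT met that of 3926 to 6827 in IDH1R132H.
Nearest the cut, 2 sites passed the test, both nearer the top in IDH1R132H. At +28.9 kb in GBP3 the ranks were 52012, 66301, 50428.5 and 49759 in IDH1WT +DSB and 22941, 36385.5, 23829 and 23771 in IDH1R132H +DSB (1.10 ± 0.35, adjusted p = 0.0409). At +6.0 kb they were 16936, 20969.5, 17705 and 18710.5 against 15367, 12738, 12692 and 13233.5 (0.50 ± 0.16, adjusted p = 0.0458). At −931.2 kb, near the far end of the window and with the opposite direction, they were 6203.5, 6073, 7943 and 9832.5 against 12574.5, 16448.5, 17201 and 15217 (−1.11 ± 0.19, adjusted p = 0.00385). None of these 3 pairs of ranges overlapped. The sites described for this comparison were picked by the test on these same ranks, so separate ranges are no further support. The 4 IDH1WT +DSB lists count as 2 samples, and the share of all sites with separate ranges was not counted. Over 24 other settings of the limma fit, samples left out among them, the call held in 12 at +6.0 kb (adjusted p up to 0.264), in 15 at +28.9 kb (up to 0.171) and in 22 at −931.2 kb, where the divided rank gave −0.39 (adjusted p = 0.217). Not every one of these settings could change a call. Leaving out a sample of another group acts only through the shared spread, and leaving out the TET1 CD −DSB sample left this comparison unchanged. Of the other sites near the cut or the GBP genes, −8.9 kb (0.10 ± 0.16, adjusted p = 0.651), −0.5 kb (−1.60 ± 0.69, adjusted p = 0.0982), +93.1 kb (0.31 ± 0.37, adjusted p = 0.526) and +365.6 kb (−0.13 ± 0.19, adjusted p = 0.614) did not pass. The IDH1WT +DSB lists had a shortest peak of 143 to 191 bp and 70.9 to 76.4 megareads, and the IDH1R132H +DSB lists 121 to 127 bp and 23.7 to 34.6 megareads, so fragment length, depth and genotype cannot be told apart in this comparison. Leaving out 1 sample at a time left 4 to 9 of the sites called: 4 without IDH1R132H +DSB replicate 1 or without the IDH1WT +DSB sample of replicates 1, 3 and 4, and 5 without IDH1R132H +DSB replicate 2 or IDH1WT +DSB replicate 2.

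**Figure D3:**
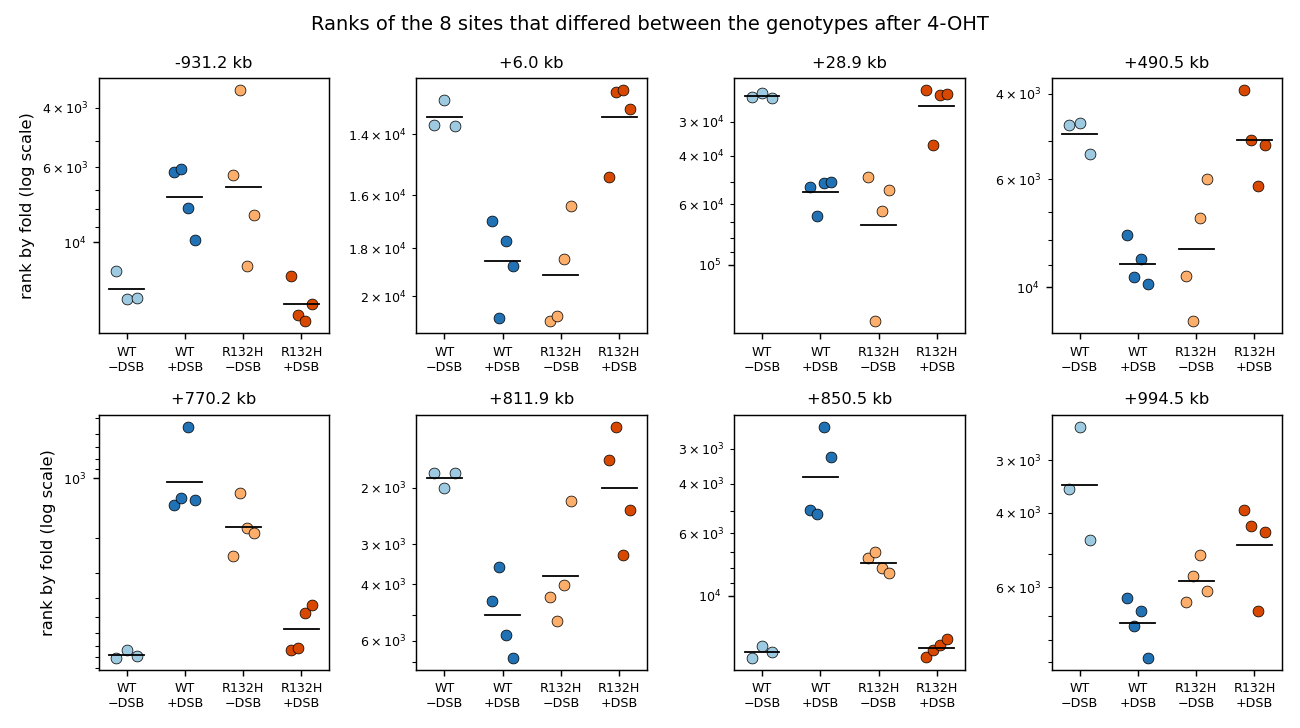
Rank by fold (y axis, log scale, strongest at the top) of the 8 sites that differed between the genotypes after 4-OHT, in the lists of IDH1WT and IDH1R132H cells without and with 4-OHT; each point is 1 list and each bar the geometric mean of the lists. In most panels the IDH1WT −DSB points lie near the IDH1R132H +DSB points, and the IDH1R132H −DSB points near the IDH1WT +DSB points.

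Without 4-OHT the labelled genotypes differed at 6 of the 26 sites, where 10.6% of all sites tested did, and at the 5 of them that also differed after 4-OHT the direction was the opposite one. In IDH1R132H −DSB cells 3 sites, −931.2, +527.1 and +770.2 kb, were nearer the top (6.77% of all sites) and 3, +28.9, +490.5 and +994.5 kb, farther from it (3.83%). At +770.2 kb the IDH1WT −DSB lists ranked the site 8071, 7379.5 and 7829.5 and the IDH1R132H −DSB lists 2468, 1181.5, 1779 and 1880 (1.99 ± 0.29, adjusted p = 0.00524). At +527.1 kb before LRRC8B they were 270256, 86944 and 34274.5 against 20955, 24289.5, 23508 and 26327.5 (2.42 ± 0.65, adjusted p = 0.042). All 7 of these lists carry run names of the other genotype; with the groups set by the run names, 5 sites passed (10.3% of all sites tested), 2 nearer the top in IDH1R132H (3.84%) and 3 farther from it (6.51%). Without 1 of the samples 0 to 6 sites were called: 0 without IDH1WT −DSB replicate 2, 1 without IDH1R132H −DSB replicate 1, 1 without the sample of IDH1R132H −DSB replicates 2, 3 and 4, and 2 without that of IDH1WT −DSB replicates 3 and 4.

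With 4-OHT the labels gave changes in opposite directions in the genotypes. In IDH1WT cells 8 sites changed, where 25.1% of all sites tested did: 4, at −931.2, +527.1, +770.2 and +850.5 kb, moved toward the top (12.9% of all sites) and 4, at +28.9, +490.5, +811.9 and +994.5 kb, away from it (12.1%). The largest change was at +770.2 kb (2.82 ± 0.29, adjusted p = 0.000689). The replicate number was also tried as a block, since same-numbered IDH1WT lists correlated, though this did not show that the numbers pair them. A fit over all 8 groups, with every list its own sample and the replicate number as a block, called 15 sites. Of these, 6 moved toward the top and 9 away from it, where 56.0% of all sites tested were called. Without the block 14 were (54.2% of all sites). Both fits count apart the lists that were joined as 1 sample elsewhere. In IDH1R132H cells 4 sites changed, where 12.2% of all sites tested did, 4.92% toward the top and 7.29% away from it: +28.9 kb (1.21 ± 0.35, adjusted p = 0.0496) and +490.5 kb (0.86 ± 0.19, adjusted p = 0.0202) moved toward the top, and −931.2 kb (−1.17 ± 0.19, adjusted p = 0.00663) and +770.2 kb (−1.65 ± 0.26, adjusted p = 0.00556) away from it. The change differed between the genotypes at 11 sites, where 45.1% of all sites tested passed, 6 with a value above 0 (23.4% of all sites) and 5 with one below 0 (21.7%). At +770.2 kb the difference was −4.47 ± 0.39 (adjusted p = 7.84e-05), which turned to 0.13 with the centred fold in place of the rank, and at +811.9 kb it was 2.40 ± 0.52 (adjusted p = 0.00601). These comparisons share their samples, so they are not separate evidence. Leaving out 1 sample left 2 to 9 sites called in IDH1WT, with 2 without the −DSB replicate 2, 5 without the −DSB sample of replicates 3 and 4, 4 without the +DSB sample of replicates 1, 3 and 4 and 5 without the +DSB replicate 2. In IDH1R132H it left 1 to 4, with 1 without the −DSB replicate 1, 2 without the −DSB sample of replicates 2, 3 and 4 and 2 without the +DSB replicate 2.
With the groups set by the run names, 0 of the 26 sites changed with 4-OHT in IDH1WT, 0 in IDH1R132H and 0 differed between them, and 0% of all sites tested passed in each of the 3 comparisons. At an unadjusted p under 0.05 there were 1, 1 and 0 of the 26 and 1148, 757 and 765 of the 30461. The 2 labellings also differed in pattern. By the labels the changes of the 2 genotypes had opposite signs at 25 of the 26 sites, with a median absolute change of 0.50 in IDH1WT and 0.42 in IDH1R132H, and by the run names at 10 of 26, with medians of 0.19 and 0.07. The difference between the genotypes had the same sign without and with 4-OHT at 2 of 26 sites by the labels and at 24 of 26 by the run names. The run names exchange all −DSB lists of the 2 genotypes and leave the +DSB lists in place. Each −DSB difference therefore only changes its sign, and the 24 follows from the 2. The estimated reads and the shortest peak followed the run names only in part. The IDH1WT −DSB lists had 22.7 to 35.1 megareads and 124 to 128 bp, within or near the ranges of the IDH1R132H +DSB lists. The IDH1R132H −DSB lists had 44.3 to 63.2 megareads and 144 to 150 bp. In the IDH1WT +DSB lists the values were 70.9 to 76.4 megareads and 143 to 191 bp, so the reads of these last 2 groups did not overlap. Which of the labellings is right was not tested beyond these values.
How ranks were scaled also moved the directions. Relative to the plain rank, dividing by the number of peaks of the list moved the median difference of all 30461 sites from 0.00 to −0.45 for the genotypes without 4-OHT, from 0.01 to 0.21 for the genotypes with it, from 0.00 to −0.22 for 4-OHT in IDH1WT, from 0.01 to 0.44 for 4-OHT in IDH1R132H and from 0.00 to 0.66 for their difference, and centring the fold moved it to −0.22, 0.30, −0.28, 0.24 and 0.52. For the genotypes after 4-OHT, the 5 sites nearer the top and 3 farther from it became 0 and 2 with the divided rank, which called 5.67% of all sites, and 11 and 3 with the centred fold, which called 54.7%. Without 4-OHT, 3 and 3 became 0 and 0 (1.94% of all sites called), and 2 and 7 (36.3%). The changes with 4-OHT, 4 and 4 in IDH1WT and 2 and 2 in IDH1R132H, became 2 and 0, and 0 and 0, with the divided rank, where 4.09% and 2.79% of all sites were called, and 2 and 9, and 9 and 2, with the centred fold, where 50.1% and 43.8% were. For the difference of the changes, 6 and 5 became 5 and 3 (21.7% of all sites called), and 12 and 6 (64.8%).

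**Figure D4:**
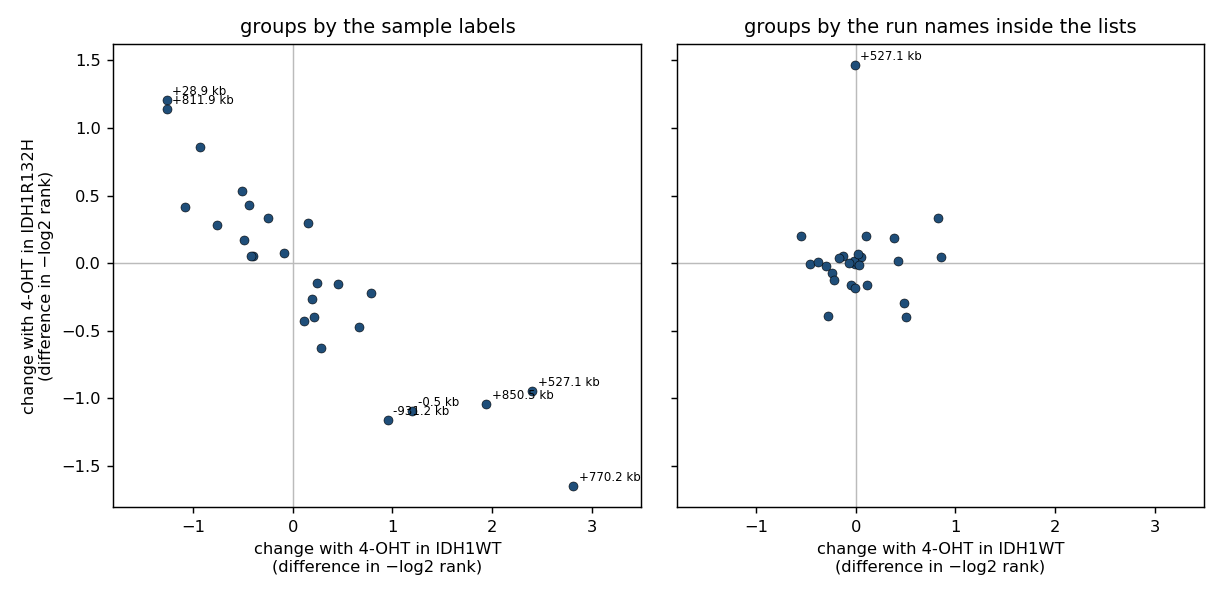
Change with 4-OHT in IDH1WT (x axis) and IDH1R132H (y axis) cells as a difference in −log2 rank, one point for each of the 26 sites, with the groups set by the labels (left) and by the run names inside the lists (right). On the left 25 of the 26 points lie where the changes have opposite signs, and on the right 10 of 26 do.

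The next comparison asked whether the TET1 catalytic domain altered the sites in IDH1R132H cells, against its dead form. Each TET1 CD group was 1 sample with no spread of its own and was assumed to vary like the other groups, so the calls rest on that assumption. After 4-OHT, when all run names match, 3 of the 26 sites differed, where 4.66% of all sites tested did. All 3 were nearer the top with TET1 CD (3.51% of all sites) and 0 farther from it (1.16%). At +640.1 kb beside LRRC8C the TET1 CD +DSB lists ranked the site 1514 and 1994.5 and the TET1 dCD +DSB lists 14334.5 and 14271 (3.04 ± 0.63, adjusted p = 0.0357). At +850.5 kb in LRRC8D the ranks were 4636 and 5368.5 against 15642.5 and 22330.5 (1.91 ± 0.45, adjusted p = 0.0458), and at −931.2 kb 6282.5 and 7511 against 15907.5 and 14271 (1.13 ± 0.26, adjusted p = 0.0426). In each the lists of the constructs did not overlap, but the sites were picked by the test on these same ranks. The directions at +850.5 and −931.2 kb turned to −0.16 and −0.93 when the rank was divided by the number of peaks of its list. The list lengths were 111558 and 115419 peaks for TET1 CD and 503609 and 448059 for TET1 dCD. Over all 30461 sites the median difference moved from 0.15 to −1.91 with that division, under which 0 of the 26 sites were called nearer the top with TET1 CD and 18 farther from it, where 0.200% and 78.3% of all sites were, and to −0.23 with the centred fold, under which 2 and 2 were called, where 8.75% and 20.3% of all sites were. By the run names 2 lists labelled TET1 dCD −DSB join the TET1 CD +DSB group, and only −931.2 kb then passed, nearer the top with TET1 CD (2.93% of all sites tested, 2.29% nearer the top). Leaving out 1 sample left 0 to 5 sites called: 0 without any 1 of the IDH1R132H samples or of the TET1 dCD +DSB replicates 1 and 2, 1 without either IDH1WT −DSB sample, and 5 without either TET1 dCD −DSB sample. Without 4-OHT 0 of the 26 sites passed, where 0% of all sites tested did. At an unadjusted p under 0.05 there were 494 of the 30461 sites and 0 of the 26, and by the run names 0 passed as well, with 1710 of the 30461 (5.61%) and 3 of the 26 at an unadjusted p under 0.05. The lowest unadjusted limma values were 0.0815 at −397.3 kb (0.48 ± 0.25), 0.171 at −256.1 kb (0.33 ± 0.22) and 0.195 at −384.6 kb (0.35 ± 0.25).
At +640.1 kb the ranks of the lists with a longer shortest peak were apart from those of the others, across groups. The 6 lists with a shortest peak of 172 to 194 bp, which belong to IDH1WT +DSB, TET1 CD +DSB and TET1 dCD −DSB, ranked it between 1514 and 7914, and the 18 lists of 118 to 150 bp ranked it between 8788 and 16716.5. At +850.5 kb the long-fragment lists ran from 2501 to 6086 and the others from 5113 to 22330.5. Fragment length and TET1 construct cannot be told apart after 4-OHT, since the TET1 CD +DSB lists were at 194 bp and the TET1 dCD +DSB lists at 118 and 119 bp.

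**Figure D5:**
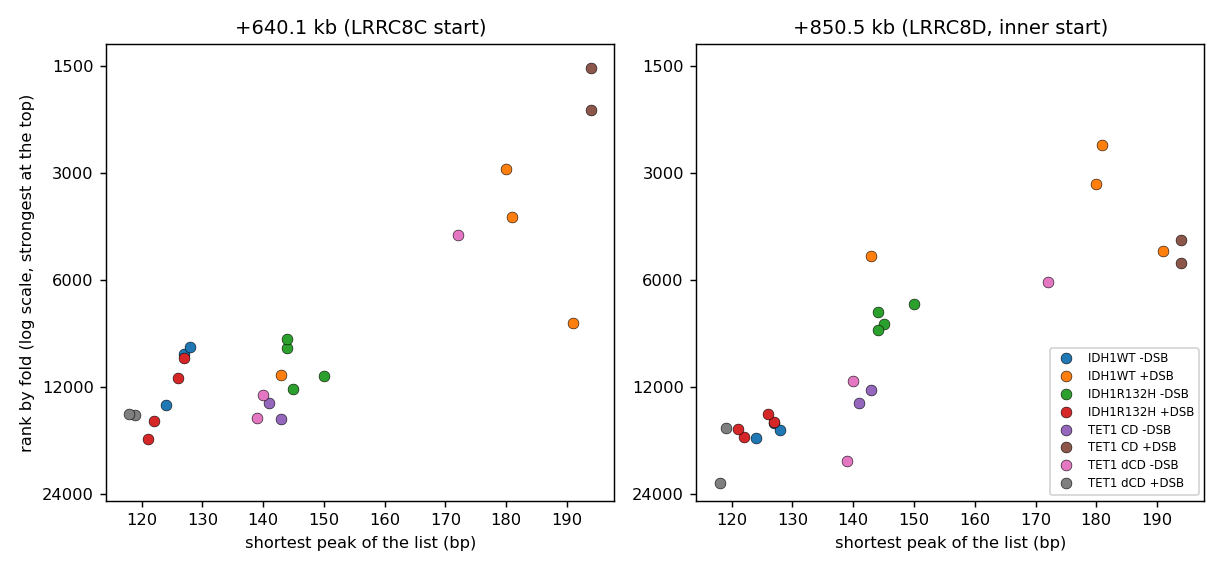
Rank by fold (y axis, log scale, strongest at the top) of the CpG-rich sites at +640.1 kb (left) and +850.5 kb (right) against the shortest peak of each list in bp; each point is 1 list, colored by its labelled group. At +640.1 kb all 6 lists at 172 bp or more rank the site at 7914 or better and all 18 shorter ones at 8788 or worse.

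The window as a whole was compared as the number of its peaks per 10000 peaks of a list. The share was 8.90 ± 0.09 in IDH1WT −DSB (SD, n = 2 samples), 8.77 ± 0.40 in IDH1WT +DSB (n = 2), 8.12 ± 0.06 in IDH1R132H −DSB (n = 2) and 9.10 ± 0.34 in IDH1R132H +DSB (n = 3). With TET1 CD it was 9.06 without and 7.49 with 4-OHT (1 sample each), and with TET1 dCD 9.57 ± 0.66 without and 9.59 ± 0.06 with 4-OHT (2 samples each). The groups thus lay within a narrow range, with TET1 CD +DSB the lowest.
None of the differences passed a two-sided exact permutation test. IDH1R132H minus IDH1WT, with treatment as strata, was −0.22 (exact p = 0.45, smallest possible 0.0167). The change with 4-OHT was −0.13 in IDH1WT (exact p = 1, smallest possible 0.333) and 0.98 in IDH1R132H (exact p = 0.1, the smallest possible), and the difference of these changes was 1.11 (exact p = 0.0667). TET1 CD minus TET1 dCD was −1.31 (exact p = 0.111, the smallest possible). The permutations for 4-OHT and for TET1 could not reach 0.05 with so few samples. Without the IDH1WT +DSB sample of replicates 1, 3 and 4 the change in IDH1WT turned to 0.16. With the groups set by the run names the same 5 values were 0.55 (exact p = 0.0667), 0.65 (exact p = 0.333), 0.21 (exact p = 0.6), −0.44 (exact p = 0.45) and −0.44 (exact p = 0.833).

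Presence of a peak was compared between the genotypes at the 208 sites found in at least 4 lists, counting a sample as positive if any of its lists had a summit there. Of these, 0 differed after adjustment (Fisher's exact test, two-sided, adjusted over 355140 sites), where 0% of all sites tested did. At an unadjusted p under 0.05 there were 8 of the 208 (3.85%) and 2.12% of all sites, and all 8 were found in more IDH1WT than IDH1R132H samples. They were −530.1, −184.3 and +760 kb, in 4 of 4 IDH1WT and 1 of 5 IDH1R132H samples, and −99.2, −7.8, +57.2, +458.1 and +528.6 kb, in 3 of 4 and 0 of 5 samples, each with an exact p of 0.0476. These 8 were picked by their values. With 4 against 5 samples, 3 of 4 IDH1WT and 0 of 5 IDH1R132H samples reach an unadjusted p under 0.05. The reverse, 3 of 5 IDH1R132H and 0 of 4 IDH1WT samples, does not, so the direction is partly set by the sample numbers. The split by direction was not counted over all sites. By the run names 0 of the 208 passed and 10 (4.81%, against 10.1% of all sites) had an unadjusted p under 0.05, 3 of them found in more IDH1R132H samples. The smallest p that 4 against 5 samples allow is 0.00794, which can pass the adjustment at this number of sites only where many sites reach it together.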

How the data were processed

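CTCF ChIP-seq of DIvA cells was analysed from 24 deposited peak lists. The authors trimmed reads, mapped them to hg38 and ran MACS2 on every sample by itself, with input as control. The submitters' processing notes name cutadapt 1.18 and Bowtie2 2.3.4.1; the paper gives another Bowtie2 version, and the MACS2 version is given in conflicting ways and is left out. The deposited fold column holds summit reads plus 1 over a single background plus 1 in each list and is not normalized between lists. With a single background, the fold and the ranks taken from it are not corrected for the local input signal at a site. The deposited −log10 p and −log10 q values and the score, which is 10 times the −log10 p, follow from the same reads; the q-values were used only for filters and the score not at all. Estimated reads assume an effective genome of 2.7 Gb and leave out IDH1WT +DSB replicate 3, whose read steps are scaled. The list of IDH1WT −DSB replicate 1 and the 4C-seq samples were not analysed here.

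Summits on chromosomes 1 to 22 and X were joined within 100 bp. Lists of a group were compared by a chi-square test of their reads at shared summits of 20 to 50 reads, and those that differed by less than counting noise were averaged as 1 sample. Sites with a summit in every list were tested by limma 3.58.1 (R 4.3.3) on log2 rank over 8 groups, which share 1 spread, with Benjamini-Hochberg adjustment over all 30461 sites. Tested on simulated data for IDH1R132H against IDH1WT +DSB over 30461 sites with 200 changed, the fit recovered 19% of changes of log2 size 1 and 60% of size 2, and 8.14% of 86 calls were false. Shares used exact permutation tests and presence Fisher's exact test, with scipy 1.17.1. The CTCF matrix of 20 bases was built from 7543 sites off chromosome 1 and used at a score that 1.00% of displaced windows passed. Sites named were those with a median rank of 20000 or better, those in 12 or more lists within 10 kb of the cut, those in 4 or more lists inside a bisulfite amplicon, those past the threshold in a limma comparison, and the strongest of each listed gene or its 5 kb upstream. Amplicon places came from letters of the supplementary text. The members and lists were chosen with earlier results of these data known. Same-numbered samples of different groups correlated between −0.12 and 0.34 in 18 pairs, 8 of them above 0.1. All 3 pairs of IDH1WT −DSB and +DSB lists were above 0.1 (0.21 to 0.34), and in every other comparison at least 1 pair was below 0.1. On this ground alone the number was tried as a block for those lists. Lists of different numbers were not compared in this way. Replicates 3 and 4 are also joined in 1 sample in both IDH1WT groups, so a pairing was not shown.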

Additional observations from a re-analysis of the deposited data

Results flagged for a closer look

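At 11 of the 26 sites found in every list the change with 4-OHT differed between the labelled genotypes by the interaction test of limma (adjusted p under 0.05 over 30461 sites). Values are the change in −log2 rank in IDH1R132H minus that in IDH1WT. The difference was −2.12 at −931.2 kb, 0.87 at −397.3 kb, −0.91 at −384.6 kb, 1.05 at +6.0 kb, 2.47 at +28.9 kb and 1.79 at +490.5 kb. It was −3.35 at +527.1 kb, −4.47 at +770.2 kb, 2.40 at +811.9 kb, −2.99 at +850.5 kb and 1.50 at +994.5 kb. With the groups set by the run names 0 of the 26 passed this test, and 45.1% of all sites tested passed it by the labels. At +770.2 kb the direction turned to 0.13 with the centred fold. No group had 4 samples, so no sample was tested for standing apart from its group.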

How the results depend on the processing

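Results by labels rest on lists whose run names differ. For the share of peaks in the window, IDH1R132H minus IDH1WT (−0.22) turned to 0.43 at −log10 q of at least 10, 0.11 at q of 0.05 or less, 0.29 and 0.10 with the 20000 and 50000 strongest peaks, 0.093 within 500 kb and 0.55 by the run names. The change with 4-OHT in IDH1WT (−0.13) turned under the same settings to 0.18, 0.23, 0.25 and 1.17, to 0.15 within 100 kb and to 0.65 by the run names. In IDH1R132H (0.98) it turned to −0.50 with the 50000 strongest peaks and −0.039 within 100 kb, and was 1.00 (exact p = 0.0286) with every list its own sample. The difference of the changes (1.11) turned to −1.67 with the 50000 strongest peaks, −0.19 within 100 kb and −0.44 by the run names, and passed at 1.28 with every list its own sample, 1.31 with the replicate block and 1.10 with only the closest pairs of lists joined, a setting chosen after seeing the data. TET1 CD minus TET1 dCD (−1.31) turned to 0.43 at −log10 q of at least 10 and to 0.63 and 1.10 with the 20000 and 50000 strongest peaks. Leaving out 1 sample gave −0.36 to −0.08, −0.41 to 0.16, 0.80 to 1.14, 0.83 to 1.39 and −1.54 to −1.07 in this order.

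Counts of called sites of the 26 also moved, and so did the share of all sites tested that were called. With every list its own sample this share was 32.4% for the genotypes without 4-OHT and 56.6% with it. It was 54.2% for 4-OHT in IDH1WT, 33.5% in IDH1R132H and 39.1% for TET1 with 4-OHT. With the closest pairs only, 6684 of the 30461 sites were called for 4-OHT in IDH1R132H. The shares for the divided rank, the centred fold and the run names stand with each comparison above. For the genotypes without 4-OHT, 6 became 10 with every list its own sample and 0 with the rank divided by the number of peaks, and leaving out 1 sample gave 0 to 6. For the genotypes with 4-OHT, 8 became 16, 2 and, with the centred fold, 14 (4 to 9 without 1 sample). For 4-OHT in IDH1WT, 8 became 14, 2 and, by the run names, 0 (2 to 9). In IDH1R132H, 4 became 9, 0, 11 with the centred fold, 0 by the run names and 8 with the closest pairs only (1 to 4). For the difference, 11 became 18 with the centred fold and 0 by the run names (8 to 13). For TET1 CD against TET1 dCD with 4-OHT, 3 became 10, 18, 1 by the run names and 5 with sites of a median rank of 50000 or better (0 to 5), and without 4-OHT 0 stayed 0. The replicate block gave 10 (35.1% of all sites tested), 16 (58.3%), 15 (56.0%), 9 (36.7%) and, for TET1 with 4-OHT, 10 (41.6%). In every comparison the lists share a number, which was not shown to pair them. The cause of these moves was not tested.

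Among single sites, +770.2 kb turned to 0.20 (genotypes, +DSB) and 0.13 (difference) with the centred fold, and −931.2 and +850.5 kb (TET1, +DSB) to −0.93 and −0.16 with the divided rank. By the run names the difference of the 4-OHT changes turned at −397.3 kb (−0.00046), −384.6 kb (0.087), +6.0 kb (−0.046), +28.9 kb (−0.27), +527.1 kb (1.48) and +994.5 kb (−0.11). In the simulated data of the methods, where 200 of 30461 sites changed, 19% of the changes by a factor of 2 in rank were called. For the genotypes with 4-OHT 28.2% of all sites passed, which makes the adjustment less strict, so that share does not carry over to these data. How many changes were missed here was not tested.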
